A study of Mus musculus with 21 samples.

Results

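The genes described here build the extracellular matrix of the mouse presomitic mesoderm (PSM) and the receptors that hold cells to it. They were chosen by symbol: fibrillar and other collagen chains, laminin chains, integrin alpha and beta chains, the nidogens, and the matrix proteins fibronectin (Fn1), fibrillin 2 (Fbn2), vitronectin (Vtn), Sparc, tenascin C (Tnc), versican (Vcan), perlecan (Hspg2) and Itih5. On the array, 81 genes matched by a probe set with a single symbol, and 62 of them were at or above the median of all signals (13.3) in 3 or more arrays, as were 12143 of 18193 genes in all. Fbn1 also fits the names and was not analysed here.

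The study cut the PSM of CD-1 mouse embryos into 7 pieces, called parts 1 to 7, and hybridised 3 arrays of each, 21 in all. The embryos are labelled E8.5, with dissection at 9.0 days post coitus, and carried no named allele or treatment. The tissue was freed with 2 mg/ml pancreatin for 1 min, and its RNA was amplified in a two-cycle protocol before hybridisation to Affymetrix arrays. The labels do not say which part number lies toward the tail and which toward the somites, so directions below are given by part number. The design text says that the left and right PSM came from one embryo and a further set from another, without saying which replicate numbers these are. By that account the 3 arrays of a part came from fewer than 3 embryos, and n = 3 below counts arrays. The p-values here speak of the spread among these arrays alone, which can be technical in part.

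The PSM is the strip of unsegmented mesoderm that flanks the neural tube and sheds somites at its anterior end. Fibronectin fibrils surround it and are gripped by integrins, receptors made of an alpha and a beta chain, and loss of fibronectin or of the alpha 5 integrin disturbs somite formation in mice. As cells become epithelial, a basement membrane of laminin trimers and type IV collagen, linked by nidogens and perlecan, covers them, while microfibrils of fibrillin form in the surrounding matrix.

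All 10 PSM and somite markers, Tbx6, Msgn1 and Dll1 among them, were past the signal filter. Of the 10, 5 rose and 5 fell with part number by the slope test used below. Of 5 sclerotome markers, Pax9 and Twist1 passed it, in 13 and 19 arrays, and Pax1, Nkx3-2 and Scx did not. The mean of the 5 on the log2(signal + 16) scale was 4.60 in part 1 and 5.47 in part 7. Replicate 3 of parts 1, 2 and 3 stood apart in 7 extraembryonic endoderm markers such as Ttr and Afp, whose array means on the log2(signal + 16) scale were 7.41, 7.19 and 6.83, against 4.25 to 5.82 in the other arrays. Endothelial markers also varied within parts, from 4.35 in replicate 3 of part 6 to 6.87 in replicate 3 of part 2. The 3'-to-5' log2 ratio of the actin control probe sets, a sign of RNA length, ran from 2.35 to 4.39 and was lowest on average in part 1 (2.91). Of 9 blood markers past the filter, 6 fell with part number. How far these differences enter the results below was not tested, beyond the repeats without the 3 named arrays.

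The matrix and integrin genes followed no common direction along the tissue. A straight line on part number rose for 9 of the 62 genes and fell for 14, together 37.1% of them, where 19.2% of all tested genes passed (8.09% rose and 11.1% fell; limma, Benjamini-Hochberg adjusted p under 0.05 over all 12143 genes). The genes that rose were Vtn, Col26a1, Fbn2, Itih5, Col4a1, Col4a2, Nid2, Itga9 and Lamb1. Those that fell were Col13a1, Itgb8, Col1a2, Sparc, Itgav, Col5a2, Itga1, Col17a1, Col11a1, Lama3, Lamc1, Col25a1, Col24a1 and Itga7. Taken by replicate number, all 3 sets of 7 arrays gave the same sign as the full fit for each of these 23 genes. The genes were chosen by the fit to these same arrays, so the shared sign is no separate test of them. Of the 23, 5 genes reached the signal filter in no array of 3 or more parts. For Vtn the 9 arrays at or above it were those of parts 5 to 7, for Lama3 (7 arrays) and Col25a1 (9 arrays) all were from parts 1 to 4, and for Col24a1 and Itga7 (3 arrays each) from parts 1 and 2. These genes entered the tests through the parts where they were high, and all their calls carry that condition. Itga1 and Col17a1 reached the filter in 16 and 14 arrays, none of them from part 7. In whole-tissue RNA, fewer cells of a type and less RNA per cell cannot be told apart. Slopes are log2 units of signal + 16 per part, and this added constant understates the change of genes with low signal.

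**Figure D1:**
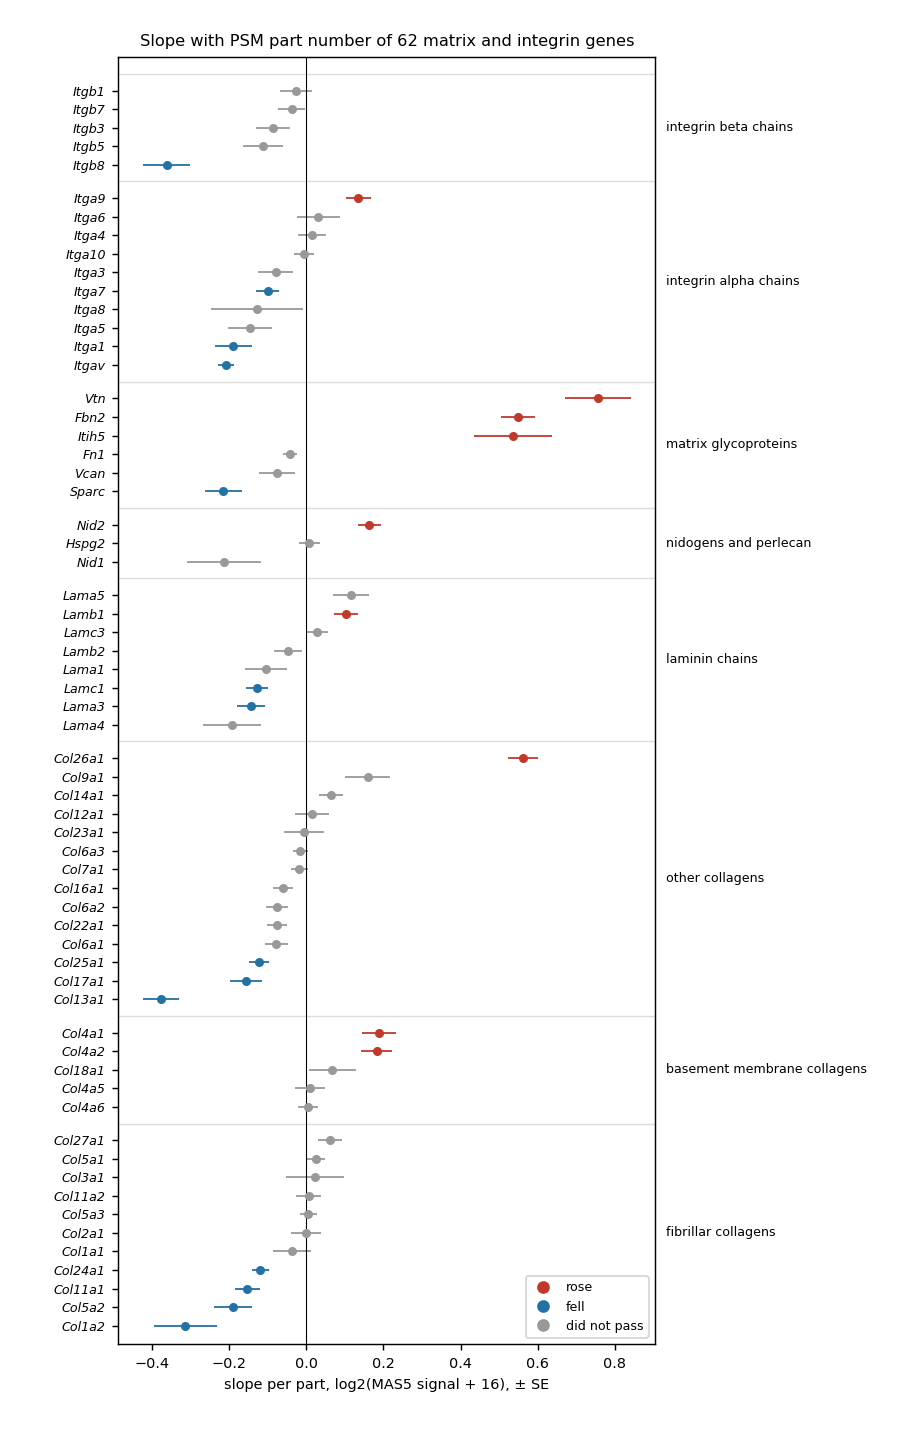
Slope with part number, in log2(MAS5 signal + 16) per part with its SE, of the 62 genes in 8 groups by role; red points rose, blue points fell and grey points did not pass the test. Vtn lies farthest to the right at 0.76 and Col13a1 farthest to the left at -0.38. Red and blue points stand side by side among the other collagens, the laminins, the glycoproteins and the integrin alpha chains.

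The median slope of the 62 genes was -0.03 and that of all genes 0.00, while the median size of a slope was 0.09 against 0.03. Between the end pieces, 10 of the genes were higher in part 7 than in part 1 and 9 were lower (6.1% and 7.3% of all genes). Without the replicate 1 arrays these counts were 6 and 4, and without the replicate 2 arrays 5 were lower. Without any assumed order, 25 of 62 differed between some of the 7 parts (limma F test; 13.4% of all genes), a count that fell to between 10 and 22 when the 7 arrays of 1 replicate number were left out. Of these 25, the highest mean was in part 7 for 8 genes, and in part 1 and in part 2 for 5 each. The middle parts 3, 4 and 5 were higher than the other 4 parts for Itga1, Itgb5 and Col9a1, 3 genes where 1.32% of all genes passed. Their mean was below that of the other 4 parts for Col1a2, Lamb1, Itih5 and Vtn, 4 genes where 1.6% passed. For Vtn and Itih5 the middle was lower than parts 6 and 7 only. The Vtn means were 4.12 and 4.31 in parts 1 and 2, and 4.27, 4.33 and 5.55 in parts 3 to 5. Those of Itih5 were 5.12 and 5.15, and 5.45, 5.11 and 5.15. The count of 3 became 5 without replicate 1 of part 5 or replicate 3 of part 7, and 6 without replicate 3 of part 6 or with array weights.

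**Figure D2:**
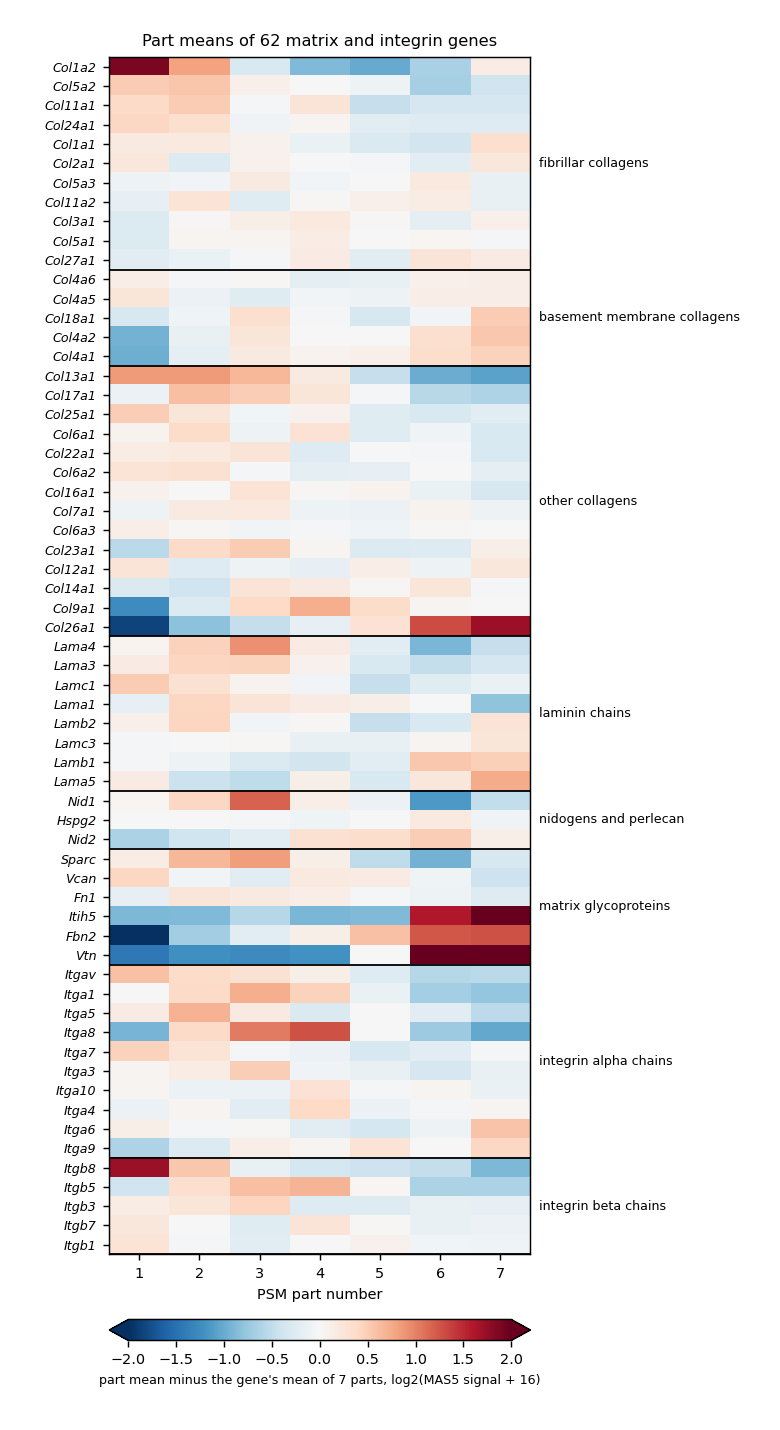
Mean of each of the 62 genes in each part minus the gene's mean over the 7 parts, in log2(MAS5 signal + 16), with 3 arrays behind each cell and the colour scale ending at 2 either way. Vtn and Itih5 are blue up to part 4 and red in parts 6 and 7, Fbn2 and Col26a1 pass from blue in part 1 to red in part 7, and Itgb8 and Col1a2 are reddest in part 1.

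Changes between neighbouring parts were called at 2 of the 6 steps. From part 1 to part 2, Fbn2, Itgb5 and Fn1 rose, 3 of 62 where 0.799% of all genes changed. From part 5 to part 6, Vtn, Itih5 and Lamb1 rose, 3 of 62 where 0.486% of all genes changed. At the other 4 steps limma called 0 members, and 9, 8, 10 and 6 members had an unadjusted p under 0.05 at the steps into parts 3, 4, 5 and 7, where 0.00824%, 0.0494%, 0.321% and 0% of all genes changed. The 6 calls became 12 with array weights, 2 without the replicate 1 arrays and 1 without the replicate 2 arrays. With the replicate number as a block, a pairing that the labels do not give, more were called, as the closing section shows.

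Vitronectin, an adhesive glycoprotein bound by integrins that contain the alpha v chain, had the steepest rise. Its 3 arrays, given in the order of replicate number here and below on the log2(signal + 16) scale, read 4.05, 4.18 and 4.12 in part 1, 4.39, 4.46 and 4.09 in part 2, and 4.58, 4.10 and 4.11 in part 3. They then read 4.44, 4.07 and 4.49 in part 4, 6.38, 4.98 and 5.28 in part 5, 8.01, 7.79 and 7.69 in part 6, and 8.91, 8.07 and 8.22 in part 7. The gene stayed near the bottom of the scale through part 4, and every array of parts 5, 6 and 7 exceeded every array of parts 1 to 4. It passed the filter through parts 5 to 7, where it was high, so its calls carry that condition. Its slope was 0.76 ± 0.08 (SE; adjusted p = 4.83e-07), and that of its other probe set past the filter was 0.36. The step from part 5 to part 6 was 2.28 ± 0.28 (SE; adjusted p = 0.000616), or 4.85-fold on this scale. That call was lost with a pseudocount of 1 (adjusted p = 0.0829) and without the replicate 2 arrays (adjusted p = 0.0962). Part 7 exceeded part 1 by 4.29 ± 0.28 (SE; adjusted p = 3.42e-09), and the middle parts minus the others came to -1.45 ± 0.15 (SE; adjusted p = 1.63e-05).

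Itih5, a heavy chain of the inter-alpha-trypsin inhibitor family whose members bind hyaluronan, was low up to part 5 and high in parts 6 and 7. Its arrays read 4.74, 5.36 and 5.25 in part 1, 4.91, 4.54 and 6.00 in part 2, 5.28, 5.13 and 5.94 in part 3, and 5.01, 4.89 and 5.42 in part 4. In the later parts they read 5.00, 4.61 and 5.82 in part 5, 7.71, 7.33 and 7.82 in part 6, and 9.45, 6.99 and 9.28 in part 7. Replicate 3 was the highest of the 3 in parts 2 to 6, and all arrays of parts 6 and 7 were above all earlier ones. In part 7, replicate 2 lay well below the other pair. The slope was 0.54 ± 0.10 (SE; adjusted p = 0.000413), and the step into part 6 was 2.47 ± 0.49 (SE; adjusted p = 0.0199). The middle parts minus the others came to -1.38 ± 0.27 (SE; adjusted p = 0.00484), a call lost without the replicate 1 arrays (adjusted p = 0.211). The step was no longer called with a pseudocount of 64 (adjusted p = 0.0537), or on leaving out part 5 replicate 1 or 2, or part 6 replicate 1, 2 or 3 (highest adjusted p 0.178).

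The laminin beta 1 chain (Lamb1), part of the trimers found in early basement membranes, took a smaller step at the same place. Its arrays read 10.51, 10.67 and 10.74 in part 1, 10.53, 10.46 and 10.73 in part 2, 10.21, 10.38 and 10.59 in part 3, and 10.22, 10.10 and 10.63 in part 4. They read 10.56, 10.30 and 10.57 in part 5, 11.15, 11.15 and 11.35 in part 6, and 11.04, 11.28 and 11.14 in part 7. The part means were lowest in part 4 and highest in part 6, where all 3 arrays were above every array of parts 1 to 5. The step from part 5 to part 6 was 0.74 ± 0.13 (SE; adjusted p = 0.00797), and the middle parts minus the others came to -0.50 ± 0.07 (SE; adjusted p = 0.000285). The step was lost on leaving out part 5 replicate 2, or part 6 replicate 3 (highest adjusted p 0.081). The slope of 0.10 ± 0.03 (SE; adjusted p = 0.0199) was lost on leaving out part 7 replicate 2 (adjusted p = 0.0569), and the difference between parts 7 and 1 (0.52 ± 0.13 SE; adjusted p = 0.0119) on leaving out part 1 replicate 1, or part 7 replicate 2 (highest adjusted p 0.0593). Without the replicate 1 or replicate 2 arrays the slope, the step and the end parts' difference did not pass. On the mean of all Lamb1 probe sets, the step had an adjusted p of 0.377 and the middle difference one of 0.0864.

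Because these 3 genes rose at the same step, their start sites are shown. Each window runs from upstream of the RefSeq start into the first transcribed bases and is 300 bases long on GRCm38.p6, 5′ to 3′ on the gene's own strand, which is the plus strand for all 3. The windows are chr11:78498870-78499169 (Vtn), chr2:10153293-10153592 (Itih5) and chr12:31265043-31265342 (Lamb1). Capitals mark matches on either strand to the GC box (letters GGGCGG), the TATA box (letters TATAAA) and the CCAAT box (letters CCAAT).
Vtn: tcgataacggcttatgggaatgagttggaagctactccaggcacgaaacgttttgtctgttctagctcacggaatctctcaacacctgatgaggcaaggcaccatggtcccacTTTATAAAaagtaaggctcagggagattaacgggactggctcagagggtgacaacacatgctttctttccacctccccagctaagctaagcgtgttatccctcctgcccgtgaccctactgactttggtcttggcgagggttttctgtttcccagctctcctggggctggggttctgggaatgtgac
Itih5: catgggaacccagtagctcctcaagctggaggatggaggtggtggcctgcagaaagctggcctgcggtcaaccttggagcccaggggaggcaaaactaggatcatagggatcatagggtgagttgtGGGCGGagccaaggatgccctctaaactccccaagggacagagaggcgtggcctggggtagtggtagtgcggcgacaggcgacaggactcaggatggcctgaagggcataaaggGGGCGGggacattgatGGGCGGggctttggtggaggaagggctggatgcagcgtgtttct
Lamb1: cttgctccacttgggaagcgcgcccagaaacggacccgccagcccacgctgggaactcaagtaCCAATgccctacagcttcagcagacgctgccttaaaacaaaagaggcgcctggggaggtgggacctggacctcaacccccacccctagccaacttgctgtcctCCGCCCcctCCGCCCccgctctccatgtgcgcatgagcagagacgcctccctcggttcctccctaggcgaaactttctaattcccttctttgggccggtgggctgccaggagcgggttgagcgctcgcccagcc

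The Vtn window held the TATA box on both strands in 1 run of overlapping letters. The Itih5 window held 3 GC boxes, and the Lamb1 window held 2 GC boxes and 1 CCAAT box. A nuclear receptor motif (letters AGGTCA) was also searched, and these letters were in none of the windows. Of 32851 such windows in the RefSeq table, 35.7% held the GC box, 13.6% the TATA box, 37.4% the CCAAT box and 16.3% the nuclear receptor motif. None of these motifs was in all 3 windows.

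Fibrillin 2, a main component of embryonic microfibrils, was higher in each part than in the one before. Its arrays read 8.21, 7.46 and 8.59 in part 1, 9.93, 9.49 and 9.69 in part 2, 10.30, 10.39 and 9.87 in part 3, and 10.79, 10.47 and 10.29 in part 4. They read 11.23, 10.72 and 10.98 in part 5, 11.60, 11.62 and 11.68 in part 6, and 11.69, 11.66 and 11.64 in part 7. No array of part 1 overlapped any other part, and the arrays of parts 6 and 7 were nearly level. The slope was 0.55 ± 0.04 (SE; adjusted p = 3.29e-09) and part 7 exceeded part 1 by 3.58 ± 0.21 (SE; adjusted p = 1.82e-09), 11.9-fold. The first step alone, from part 1 to part 2, was 1.62 ± 0.21 (SE; adjusted p = 0.00074), and it was called under every alternative tried.

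Fibronectin itself, the main fibril protein around the PSM, changed over a narrow range. Its arrays read 11.53, 11.38 and 11.49 in part 1, 11.97, 11.83 and 11.83 in part 2, 11.75, 11.78 and 11.89 in part 3, and 11.77, 11.75 and 11.78 in part 4. They read 11.49, 11.59 and 11.72 in part 5, 11.49, 11.44 and 11.66 in part 6, and 11.19, 11.43 and 11.50 in part 7. All 3 arrays of part 2 were above all of part 1, and the means were lower in each later part down to part 7. The rise into part 2 was 0.41 ± 0.09 (SE; adjusted p = 0.023) and the slope -0.04 ± 0.02 (SE; adjusted p = 0.127). The step was lost on leaving out part 1 replicate 2 or 3, or part 2 replicate 1 or 2 (highest adjusted p 0.155), without the 3 arrays high in extraembryonic endoderm markers (adjusted p = 0.0938), without the mean-variance trend (adjusted p = 0.106) and on the mean of its probe sets (adjusted p = 0.628).

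Sparc, a collagen-binding glycoprotein, was highest in parts 2 and 3 and lowest in part 6. Its arrays read 7.92, 7.60 and 7.87 in part 1, 8.65, 7.89 and 8.40 in part 2, 8.52, 8.61 and 8.32 in part 3, and 7.51, 7.83 and 7.93 in part 4. They read 7.09, 7.14 and 7.17 in part 5, 7.13, 6.44 and 6.51 in part 6, and 7.40, 7.09 and 7.48 in part 7. The 3 arrays of each of parts 5, 6 and 7 were below all arrays of parts 1 to 4. The slope was -0.21 ± 0.05 (SE; adjusted p = 0.00222), and the difference between parts 7 and 1 did not pass (-0.47 ± 0.20 SE; adjusted p = 0.124). Of 2 other Sparc probe sets past the filter, one had a slope of -0.20 and one a slope of -0.0038. The 15 endothelial markers had part means of 5.44, 5.78, 6.29, 5.50, 5.35, 4.65 and 5.08, likewise highest in part 3 and lowest in part 6, and their part in the Sparc signal was not tested. Versican, a hyaluronan-binding proteoglycan of early mesenchyme, had a slope of -0.08 ± 0.05 (SE; adjusted p = 0.28). Its part means were 9.72, 9.25, 9.09, 9.51, 9.48, 9.22 and 8.90 in parts 1 to 7 (SD within a part 0.31 to 0.69, n = 3).

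**Figure D3:**
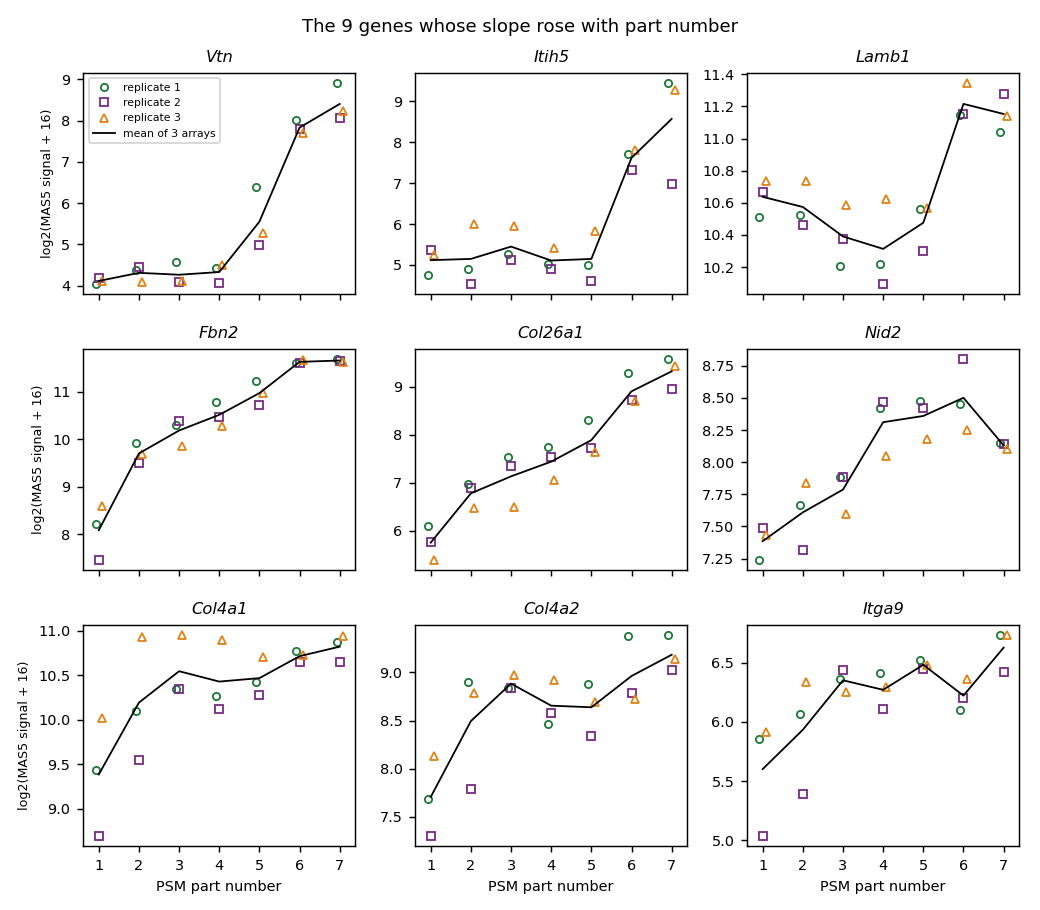
Log2(MAS5 signal + 16) of the 9 genes whose slope rose, by PSM part, with 1 marker per array, its shape and colour giving the replicate number, and a line through the means of 3 arrays. Vtn, Itih5 and Lamb1 stand higher from part 6 on, Fbn2, Col4a1 and Col4a2 take their largest step in means from part 1 to part 2, and the means of Col26a1 are higher in each part than in the one before.

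Among the 5 measured basement membrane collagens, Col4a1 and Col4a2 rose, where 8.09% of all genes did. Col18a1, Col4a5 and Col4a6 did not pass the slope test. Col4a1 and Col4a2 encode the chains of the common type IV collagen trimer. Col4a1 read 9.44, 8.69 and 10.02 in part 1, 10.10, 9.55 and 10.93 in part 2, 10.35, 10.34 and 10.95 in part 3, and 10.27, 10.12 and 10.90 in part 4. It read 10.42, 10.28 and 10.70 in part 5, 10.77, 10.65 and 10.72 in part 6, and 10.87, 10.65 and 10.94 in part 7. All 3 arrays of part 1 were below all of parts 6 and 7, and replicate 2 was the lowest of the 3 arrays in all 7 parts, as for 0.313% of all genes.

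Col4a2 read 7.69, 7.30 and 8.13 in part 1, 8.90, 7.79 and 8.79 in part 2, 8.84, 8.84 and 8.97 in part 3, and 8.47, 8.57 and 8.92 in part 4. It read 8.88, 8.34 and 8.69 in part 5, 9.38, 8.79 and 8.72 in part 6, and 9.38, 9.02 and 9.14 in part 7. Part 1 was again the lowest part, and replicate 2 of part 2 lay within its range. The slopes were 0.19 ± 0.04 (SE; adjusted p = 0.00309) for Col4a1 and 0.18 ± 0.04 (SE; adjusted p = 0.00168) for Col4a2. Part 7 exceeded part 1 by 1.43 ± 0.31 (SE; adjusted p = 0.00328) and 1.48 ± 0.26 (SE; adjusted p = 0.00053). Without the replicate 1 arrays, the Col4a1 slope and its difference between the end parts did not pass (adjusted p = 0.0787 and 0.126). The slopes of the other 3 were 0.07 for Col18a1, the source of endostatin, 0.01 for Col4a5 and 0.00 for Col4a6.

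Col4a1 and Col4a2 lie head to head, and their windows overlap by 78 bases. They are shown because the pair both rose and share a stretch of sequence. The Col4a1 window is chr8:11312777-11313076 on the minus strand and the Col4a2 window chr8:11312555-11312854 on the plus strand (GRCm38.p6), each printed 5′ to 3′ on its own strand with capitals as above.
Col4a1: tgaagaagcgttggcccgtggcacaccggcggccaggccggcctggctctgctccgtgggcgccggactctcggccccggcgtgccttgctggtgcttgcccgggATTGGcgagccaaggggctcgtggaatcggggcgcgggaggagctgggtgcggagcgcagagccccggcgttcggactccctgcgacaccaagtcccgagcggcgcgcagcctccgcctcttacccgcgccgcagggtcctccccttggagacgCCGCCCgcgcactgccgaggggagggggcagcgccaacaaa
Col4a2: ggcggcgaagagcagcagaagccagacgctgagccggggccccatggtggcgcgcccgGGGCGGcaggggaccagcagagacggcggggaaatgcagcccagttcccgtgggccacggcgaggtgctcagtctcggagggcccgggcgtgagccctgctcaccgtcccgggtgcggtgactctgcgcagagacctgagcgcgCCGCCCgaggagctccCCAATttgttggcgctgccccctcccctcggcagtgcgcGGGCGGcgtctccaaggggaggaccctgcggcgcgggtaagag

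The Col4a1 window held 1 GC box and 1 CCAAT box, and the Col4a2 window 3 GC boxes and 1 CCAAT box, with no overlap between matches in a window. The GC box of the Col4a1 window lies in the shared bases and is the same site as the last GC box printed for Col4a2. Their 2 starts are 21 bases apart. The GC content was 74% and 73.7%, against 51.7% in the Vtn window.

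Of the 8 laminin chains, Lamb1 rose, Lama3 and Lamc1 fell, and 5 did not pass the slope test (8.09% of all genes rose and 11.1% fell). Lamc1, the gamma chain of most early laminins, had means of 6.92, 6.72, 6.48, 6.36, 5.95, 6.17 and 6.27 in parts 1 to 7 (SD within a part 0.12 to 0.36, n = 3), with a slope of -0.13 ± 0.03 (SE; adjusted p = 0.00227). The slope was lost without the replicate 2 arrays (adjusted p = 0.0929). The end parts differed by -0.65 ± 0.19 (SE; adjusted p = 0.0281), a call lost on leaving out part 1 replicate 2, or part 7 replicate 1 or 2 (highest adjusted p 0.131). Lama3, a chain of epithelial laminins, had means of 4.93, 5.20, 5.21, 4.86, 4.46, 4.29 and 4.44 in parts 1 to 7 (SD within a part 0.16 to 0.55, n = 3) and a slope of -0.14 ± 0.04 (SE; adjusted p = 0.00596). No array of parts 5 to 7 reached the filter, so the call carries the condition given above. It was lost without the replicate 1 arrays (adjusted p = 0.217). The beta 1 and gamma 1 chains, which share trimers, had slopes of opposite sign in the same arrays.

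Lama5 and Lamb2 differed between parts without a called slope. Lama5, the alpha chain of later basement membranes, had means of 5.53, 4.93, 4.84, 5.47, 5.06, 5.58 and 6.10 in parts 1 to 7 (SD within a part 0.09 to 0.59, n = 3), lowest in part 3 and highest in part 7 (F test adjusted p = 0.0148). Its slope was 0.12 ± 0.05 (SE; adjusted p = 0.0899) and passed on leaving out replicate 2 or replicate 3 of part 1 (adjusted p = 0.0415 and 0.0202). The other Lama5 probe set past the filter (19 arrays) also had a slope of 0.12. It passed there (limma, adjusted p = 0.0249 over all probe sets past the filter). Lamb2 had means of 5.42, 5.75, 5.27, 5.35, 4.86, 5.02 and 5.61 in parts 1 to 7 (SD within a part 0.05 to 0.32, n = 3). Its F test adjusted p of 0.0285 was lost on leaving out part 2 replicate 1 or 2, part 5 replicate 1 or 3, or part 6 replicate 2 or 3 (highest adjusted p 0.0732). Lama1, the alpha chain of the first embryonic laminin, had the slope -0.10 ± 0.05 (SE; adjusted p = 0.199). Its replicate 3 arrays were the lowest in all 7 parts, and in part 7 replicates 1 and 3 read 8.22 and 7.98 while replicate 2 read 9.46.

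The nidogens, which join laminin to type IV collagen, differed in how they behaved. Nid2 read 7.24, 7.49 and 7.43 in part 1, 7.67, 7.32 and 7.84 in part 2, 7.88, 7.88 and 7.59 in part 3, and 8.42, 8.46 and 8.04 in part 4. It read 8.47, 8.42 and 8.18 in part 5, 8.45, 8.80 and 8.25 in part 6, and 8.15, 8.14 and 8.10 in part 7. All arrays of parts 4 to 7 were above all of part 1, with a slope of 0.16 ± 0.03 (SE; adjusted p = 0.000233). Part 7 exceeded part 1 by 0.74 ± 0.17 (SE; adjusted p = 0.00428), a call lost without the replicate 1 arrays (adjusted p = 0.162). Perlecan (Hspg2), the heparan sulfate proteoglycan of the basement membrane, had a slope of 0.01 ± 0.03 (SE; adjusted p = 0.885).

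Nid1 read 7.64, 6.41 and 7.88 in part 1, 7.97, 5.87 and 9.21 in part 2, 8.33, 7.89 and 9.10 in part 3, and 6.88, 6.79 and 8.52 in part 4. It read 6.89, 6.70 and 7.85 in part 5, 6.89, 5.84 and 5.65 in part 6, and 7.00, 5.96 and 7.38 in part 7. Its slope of -0.21 ± 0.10 (SE; adjusted p = 0.127) did not pass, and the arrays of a part differed by up to 1.69 (SD, in part 2). The mean of the 15 endothelial markers in the same arrays of part 2 was 6.11, 4.36 and 6.87, and Nid1 and the laminin alpha 4 chain (Lama4), a chain of vessel basement membranes, were lowest and highest in the same arrays of that part. Of these endothelial markers 14 were past the filter, Pecam1 was not, and their part means were highest in part 3 (6.29) and lowest in part 6 (4.65). Lama4 read 5.92, 4.50 and 7.06 in part 2 and had a slope of -0.19 ± 0.08 (SE; adjusted p = 0.0783). The part of endothelial RNA in either gene's levels was not tested.

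**Figure D4:**
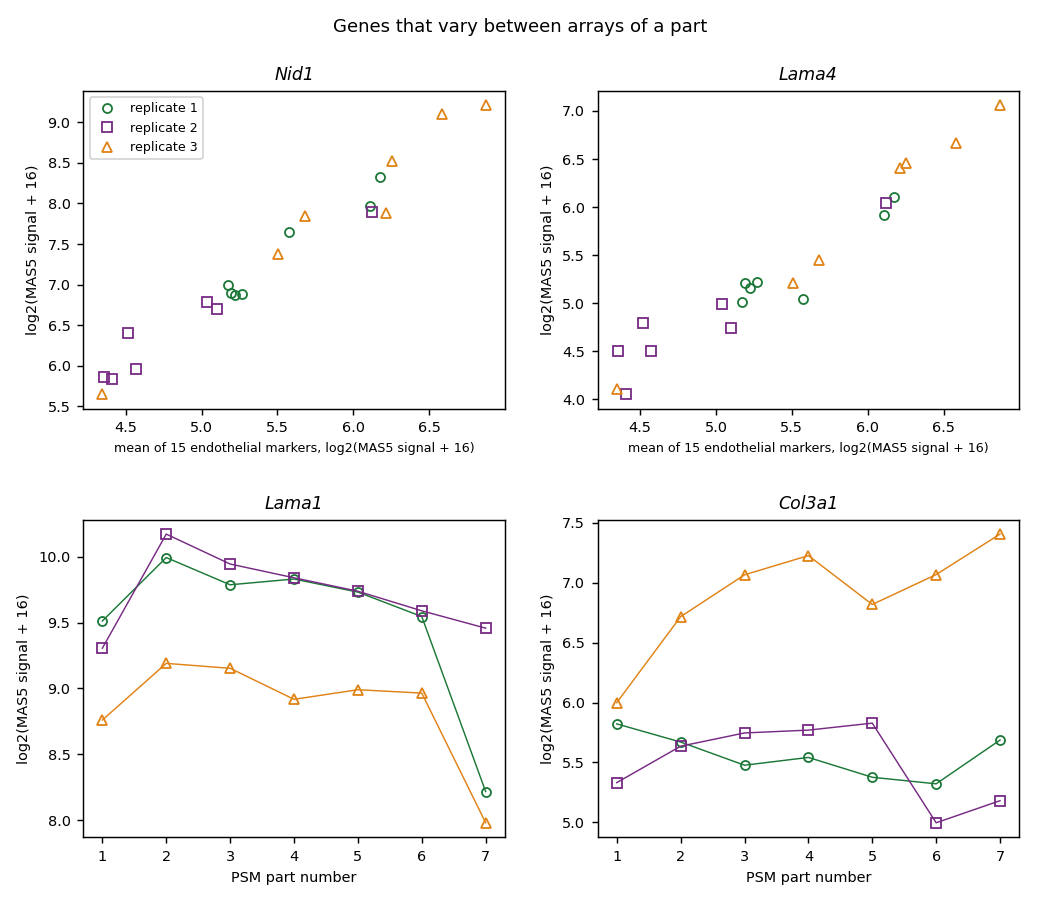
Top, Nid1 and Lama4 against the mean of 15 endothelial markers, all in log2(MAS5 signal + 16), with 1 marker per array and its shape giving the replicate number; bottom, Lama1 and Col3a1 by PSM part, with lines joining arrays of the same replicate number. Nid1 and Lama4 are highest where the endothelial markers are highest, and Lama1 is lowest and Col3a1 highest in replicate 3 in all 7 parts.

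Of the 11 fibrillar collagens, Col1a2, Col5a2, Col11a1 and Col24a1 fell, where 11.1% of all genes did, and 7 did not pass the slope test. Col1a2, the second chain of type I collagen, had the largest slope of the 11. It read 8.72, 9.09 and 8.48 in part 1, 7.58, 8.22 and 7.25 in part 2, 6.27, 7.00 and 6.49 in part 3, and 5.61, 6.37 and 6.04 in part 4. It read 5.69, 6.09 and 5.87 in part 5, 6.42, 6.16 and 6.15 in part 6, and 7.21, 6.62 and 7.27 in part 7. The arrays were highest in part 1, lowest in parts 4 and 5 and higher again in part 7, where all 3 arrays were above those of parts 4 and 5. The middle parts minus the others came to -1.27 ± 0.14 (SE; adjusted p = 2.39e-05). Part 7 minus part 1 came to -1.73 ± 0.26 (SE; adjusted p = 0.000109), 3.32-fold lower. Its slope, -0.31 ± 0.08 (SE; adjusted p = 0.00713), does not describe this course and was lost without the replicate 2 arrays (adjusted p = 0.127). Of 2 other Col1a2 probe sets past the filter, one (18 arrays) had a slope of -0.28 and one (3 arrays) a slope of 0.02.

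Col1a1, the other chain of type I collagen, had part means of 5.12, 5.13, 5.02, 4.81, 4.65, 4.57 and 5.27 in parts 1 to 7 (SD within a part 0.10 to 1.18, n = 3) and a slope of -0.04 ± 0.05 (SE; adjusted p = 0.66). Its highest array was replicate 3 of part 7 at 6.63, while the other pair of that part read 4.66 and 4.51. Col5a2, a chain of the type V collagen that starts fibrils, had means of 8.10, 8.15, 7.70, 7.60, 7.49, 6.94 and 7.20 in parts 1 to 7 (SD within a part 0.27 to 0.73, n = 3) and a slope of -0.19 ± 0.05 (SE; adjusted p = 0.00736). That slope was lost without the 3 arrays high in extraembryonic endoderm markers (adjusted p = 0.0597) and without the replicate 1 or replicate 2 arrays. Col11a1, of type XI collagen, had means of 5.96, 6.09, 5.54, 5.83, 5.12, 5.24 and 5.24 in parts 1 to 7 (SD within a part 0.13 to 0.43, n = 3) and a slope of -0.15 ± 0.03 (SE; adjusted p = 0.00169). Its difference between the end parts (-0.72 ± 0.22 SE; adjusted p = 0.0377) was lost on leaving out part 1 replicate 1 or 2, or part 7 replicate 2 or 3 (highest adjusted p 0.168).

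Col24a1 passed the signal filter in 3 arrays of parts 1 and 2. It had means of 4.95, 4.85, 4.46, 4.57, 4.31, 4.26 and 4.27 in parts 1 to 7 (SD within a part 0.04 to 0.24, n = 3) and a slope of -0.12 ± 0.02 (SE; adjusted p = 0.000336). Itga7, Itgb3 and Itgb7 also passed in exactly 3 arrays. Just outside, Col15a1, Itga2 and Itgb2 reached the median in 1 array each, and the other 16 genes that did not pass reached it in none: Col4a3, Col4a4, Itgb4, Itgb6, Lama2, Lamb3, Tnc, Col10a1, Col19a1, Col20a1, Col6a4, Col6a5, Col8a1, Col8a2, Col9a2 and Col9a3.

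Among the 14 other collagens, Col26a1 rose, Col13a1, Col17a1 and Col25a1 fell, and 10 did not pass the slope test (8.09% of all genes rose and 11.1% fell). Col26a1, a secreted collagen with an EMI domain, read 6.09, 5.77 and 5.39 in part 1, 6.97, 6.89 and 6.48 in part 2, 7.54, 7.36 and 6.50 in part 3, and 7.74, 7.53 and 7.05 in part 4. It read 8.30, 7.72 and 7.64 in part 5, 9.29, 8.72 and 8.69 in part 6, and 9.57, 8.96 and 9.43 in part 7. The part means climbed at every step, and no array of part 1 overlapped any of parts 2 to 7. Its slope was 0.56 ± 0.04 (SE; adjusted p = 3.18e-10) and its total change from part 1 to part 7 3.57 ± 0.28 (SE; adjusted p = 3.24e-08), 11.9-fold. Replicate 1 was the highest array in all 7 parts, as for 0.321% of all genes. Its other probe set past the filter had a slope of 0.11.

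The 3 collagens of this group that fell, Col13a1, Col17a1 and Col25a1, are all transmembrane collagens, which sit in the cell membrane. Col13a1 read 8.24, 8.14 and 7.77 in part 1, 8.26, 8.40 and 7.49 in part 2, 7.85, 8.34 and 7.41 in part 3, and 7.62, 7.77 and 6.75 in part 4. It read 6.69, 7.24 and 6.29 in part 5, 5.95, 6.24 and 6.43 in part 6, and 5.32, 6.28 and 6.81 in part 7. Parts 1 to 3 were nearly level, and all arrays of parts 6 and 7 were below all arrays of parts 1 to 3. Its slope was -0.38 ± 0.05 (SE; adjusted p = 2.44e-06), and part 7 was 3.76-fold below part 1 (-1.91 ± 0.36 SE; adjusted p = 0.000977). That difference was lost without the replicate 1 arrays (adjusted p = 0.108).

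Col17a1 had means of 4.96, 5.68, 5.57, 5.32, 5.03, 4.52 and 4.46 in parts 1 to 7 (SD within a part 0.15 to 0.37, n = 3) and a slope of -0.16 ± 0.04 (SE; adjusted p = 0.00924), lost without the replicate 1 arrays (adjusted p = 0.188). Col25a1 had means of 5.33, 5.08, 4.78, 4.92, 4.58, 4.52 and 4.62 in parts 1 to 7 (SD within a part 0.11 to 0.36, n = 3) and a slope of -0.12 ± 0.03 (SE; adjusted p = 0.00181), lost on the mean of its probe sets (adjusted p = 0.474). The other Col25a1 probe set past the filter (9 arrays) had a slope of the other sign, 0.07. On the chosen probe set, the difference between the end parts (-0.71 ± 0.20 SE; adjusted p = 0.0227) was lost on leaving out part 1 replicate 1 or 2, or part 7 replicate 1 or 3 (highest adjusted p 0.111). No array of parts 5 to 7 reached the filter for Col25a1, so both calls carry the same condition. Col23a1, a further transmembrane collagen, had a slope of 0.00 ± 0.05 (SE; adjusted p = 0.964).

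Col9a1, a collagen that decorates type II fibrils in cartilage, was highest in the middle. It read 6.28, 5.21 and 6.04 in part 1, 7.01, 6.36 and 7.12 in part 2, 7.62, 7.52 and 7.40 in part 3, and 7.71, 8.01 and 7.77 in part 4. It read 7.21, 7.57 and 7.63 in part 5, 7.01, 7.38 and 7.11 in part 6, and 7.35, 6.85 and 7.16 in part 7. All arrays of parts 3, 4 and 5 were above all of part 1, and the mean peaked in part 4. The middle parts exceeded the others by 0.86 ± 0.13 (SE; adjusted p = 0.000486), and part 7 exceeded part 1 by 1.27 ± 0.24 (SE; adjusted p = 0.000994). The slope of 0.16 ± 0.06 (SE; adjusted p = 0.062) did not pass, but did so on leaving out replicate 1 of part 3 or replicate 2 of part 7 (adjusted p = 0.0487 and 0.0331). Col2a1, the type II chain itself, had a slope of 0.00 ± 0.04 (SE; adjusted p = 0.995).

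Of the 10 integrin alpha chains, Itga9 rose, Itgav, Itga1 and Itga7 fell, and 6 did not pass the slope test (8.09% of all genes rose and 11.1% fell). The alpha v chain (Itgav), which pairs with beta 3, beta 5 and beta 8 to bind vitronectin, fibronectin and latent TGF-beta, read 9.90, 9.95 and 9.76 in part 1, 9.87, 9.53 and 9.54 in part 2, 9.65, 9.73 and 9.35 in part 3, and 9.28, 9.54 and 9.36 in part 4. It read 8.82, 9.20 and 9.05 in part 5, 8.77, 8.43 and 8.91 in part 6, and 8.51, 8.70 and 9.04 in part 7. All arrays of parts 5, 6 and 7 were below all of parts 1 to 4. Its slope was -0.21 ± 0.02 (SE; adjusted p = 1.16e-07) and the end parts differed by -1.12 ± 0.16 (SE; adjusted p = 5.85e-05), or 2.18-fold. On the mean of its probe sets the slope still passed, and the difference between the end parts did not (adjusted p = 0.0976).

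The beta partners of alpha v had courses of their own. Itgb8 read 8.93, 9.93 and 8.53 in part 1, 8.20, 8.41 and 7.24 in part 2, 7.24, 7.68 and 6.88 in part 3, and 7.12, 7.51 and 6.55 in part 4. It read 6.56, 7.33 and 7.10 in part 5, 6.86, 7.50 and 6.46 in part 6, and 6.28, 7.27 and 6.00 in part 7. All arrays of part 1 were above all of parts 2 to 7, and replicate 2 was the highest array in all 7 parts, as for 0.461% of all genes. The slope was -0.36 ± 0.06 (SE; adjusted p = 0.000113), and part 7 was 6.11-fold below part 1 (-2.61 ± 0.40 SE; adjusted p = 0.000152).

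Itgb5 read 8.77, 8.36 and 8.56 in part 1, 9.48, 9.33 and 9.10 in part 2, 9.71, 9.82 and 9.17 in part 3, and 9.63, 9.82 and 9.51 in part 4. It read 9.10, 9.05 and 8.85 in part 5, 8.47, 8.41 and 8.12 in part 6, and 8.27, 8.45 and 8.30 in part 7. Its arrays in parts 2, 3 and 4 were all above those of parts 1, 6 and 7, and the middle parts exceeded the others by 0.77 ± 0.09 (SE; adjusted p = 3.74e-05). The step from part 1 to part 2 was 0.74 ± 0.16 (SE; adjusted p = 0.0358), lost on leaving out part 1 replicate 2 or 3, part 2 replicate 1 or 2, part 4 replicate 1, or part 6 replicate 2 (highest adjusted p 0.223), and without the 3 arrays high in extraembryonic endoderm markers (adjusted p = 0.0548). Its slope of -0.11 ± 0.05 (SE; adjusted p = 0.137) passed on leaving out replicate 2 of part 1 (adjusted p = 0.0382). Itgb3 lay near the bottom of the scale in most arrays and had a slope of -0.09 ± 0.04 (SE; adjusted p = 0.19). Vtn, a ligand of these receptors, was highest in parts 6 and 7, where the part means of Itgav, Itgb5 and Itgb8 were at their 2 lowest values.

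**Figure D5:**
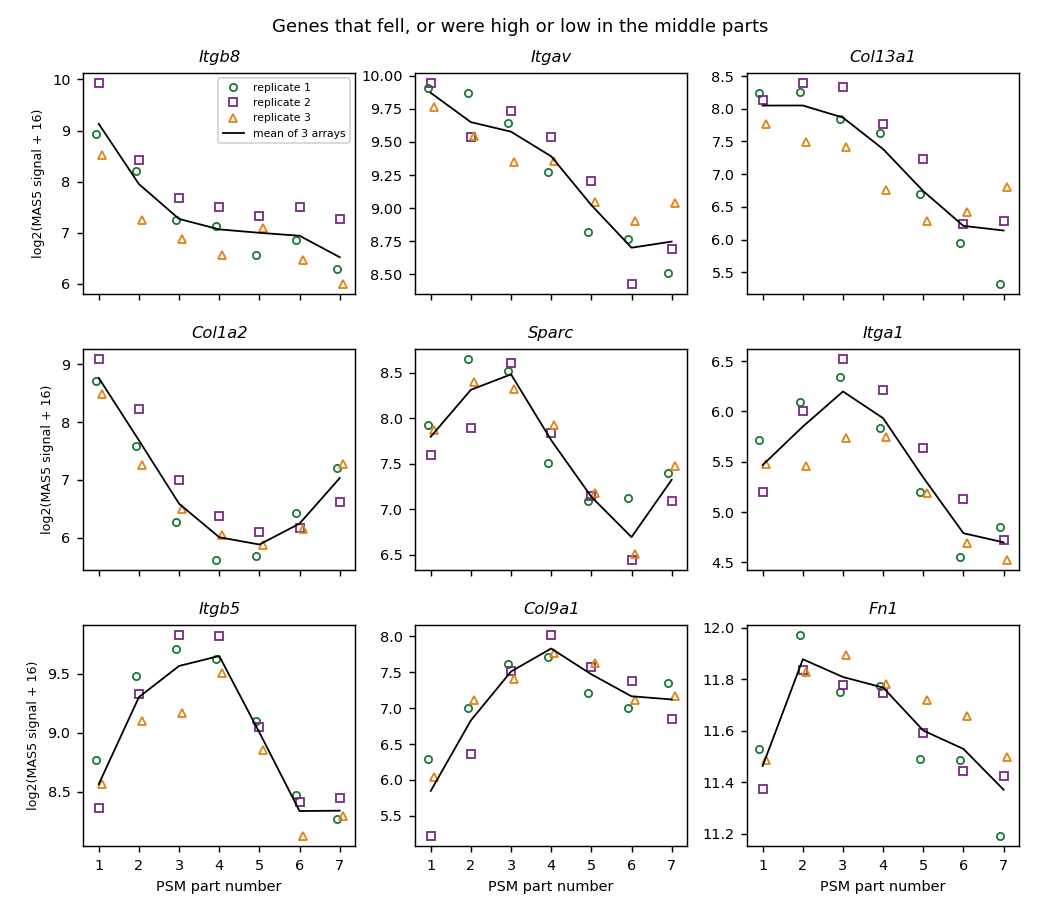
Log2(MAS5 signal + 16) by PSM part of 9 genes that fell or were high or low in the middle parts, with 1 marker per array, its shape and colour giving the replicate number, and a line through the means of 3 arrays. Itgb8, Itgav and Col13a1 descend, Col1a2 is lowest in part 5, and Itgb5, Itga1 and Col9a1 peak in parts 3 and 4.

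The main fibronectin receptor pairs alpha 5 with beta 1. Itga5 had means of 5.59, 6.13, 5.61, 5.15, 5.45, 5.21 and 4.91 in parts 1 to 7 (SD within a part 0.17 to 0.86, n = 3) and a slope of -0.15 ± 0.06 (SE; adjusted p = 0.0739). Itgb1 had means of 6.73, 6.41, 6.24, 6.44, 6.54, 6.40 and 6.38 in parts 1 to 7 (SD within a part 0.26 to 0.64, n = 3) and a slope of -0.03 ± 0.04 (SE; adjusted p = 0.718), with replicate 3 the highest array in all 7 parts. Neither change passed. Itga4, which also binds fibronectin, had a slope of 0.02 ± 0.04 (SE; adjusted p = 0.827).

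Itga1, a collagen and laminin receptor chain, had its highest mean in part 3 and its lowest in part 7. It read 5.72, 5.20 and 5.48 in part 1, 6.09, 6.00 and 5.46 in part 2, 6.34, 6.52 and 5.74 in part 3, and 5.84, 6.22 and 5.74 in part 4. It read 5.20, 5.63 and 5.19 in part 5, 4.55, 5.13 and 4.69 in part 6, and 4.85, 4.72 and 4.52 in part 7. All arrays of parts 3 and 4 were above all of parts 6 and 7. The middle parts exceeded the others by 0.62 ± 0.13 (SE; adjusted p = 0.00648) and the slope was -0.19 ± 0.05 (SE; adjusted p = 0.0056), both lost without the replicate 1 arrays (adjusted p = 0.107 and 0.101). The end parts differed by -0.77 ± 0.23 (SE; adjusted p = 0.0319), lost on leaving out part 1 replicate 1 or 3, or part 7 replicate 1, 2 or 3 (highest adjusted p 0.136).

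Itga9, an alpha chain that pairs with beta 1, had means of 5.60, 5.93, 6.35, 6.27, 6.48, 6.22 and 6.63 in parts 1 to 7 (SD within a part 0.04 to 0.49, n = 3), lowest in part 1, where replicate 2 read 5.03. Its slope was 0.14 ± 0.03 (SE; adjusted p = 0.00367) and part 7 exceeded part 1 by 1.03 ± 0.22 (SE; adjusted p = 0.00376), lost without the replicate 1 arrays (adjusted p = 0.0806). Itga7, a laminin receptor chain known from muscle, had means of 4.87, 4.67, 4.36, 4.29, 4.07, 4.18 and 4.36 in parts 1 to 7 (SD within a part 0.00 to 0.55, n = 3) and a slope of -0.10 ± 0.03 (SE; adjusted p = 0.0224). That call was lost on leaving out part 1 replicate 1 or 2 (highest adjusted p 0.0693), with a pseudocount of 1 (adjusted p = 0.0512), and without the replicate 2 arrays (adjusted p = 0.301).

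Itga8, the receptor chain for nephronectin, varied widely between arrays of a part. It read 6.19, 5.11 and 5.48 in part 1, 7.45, 6.23 and 7.05 in part 2, 7.72, 7.76 and 7.24 in part 3, and 7.74, 8.07 and 7.61 in part 4. It read 4.82, 7.06 and 7.66 in part 5, 5.02, 5.21 and 7.17 in part 6, and 4.04, 5.43 and 7.04 in part 7. In parts 3 and 4 all arrays were high, while from part 5 on replicate 1 was low and replicate 3 stayed high. The middle parts exceeded the others by 1.35 ± 0.38 (SE; adjusted p = 0.0599), which did not pass.

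In some of the genes 1 replicate number was the highest or the lowest in every part. Replicate 3 was the highest of the 3 arrays in all 7 parts for Col3a1, Col5a2, Itga6, Itgb1 and Lama5, 5 of 62 where 7% of all genes did the same, and the lowest for Lama1, 1 of 62 against 6.23%. Replicate 2 was the lowest in all 7 parts for Col4a1 and Lama4, 2 of 62 against 0.313%, and the highest for Itgb8, 1 of 62 against 0.461%. Replicate 1 was the highest for Col26a1, 1 of 62 against 0.321%. For Col3a1, a collagen of loose mesenchyme and vessel walls, replicate 3 read from 6.00 to 7.41, and replicates 1 and 2 from 5.00 to 5.83. For Itga6, a laminin receptor chain, replicate 3 of part 7 read 7.78 and replicate 2 read 6.12. Neither gene had a called slope (0.02 ± 0.07 (SE; adjusted p = 0.884) and 0.03 ± 0.06 (SE; adjusted p = 0.749)).

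The remaining members had no called slope. Over all 39 genes without a called slope, slopes ran from -0.21 (Nid1) to 0.16 (Col9a1). Some of these were larger in size than called slopes, such as 0.10 for Lamb1 and -0.10 for Itga7. The type VI collagen chains, which form beaded filaments around cells, had slopes of -0.08 for Col6a1, -0.08 for Col6a2 and -0.01 for Col6a3, with adjusted p-values of 0.0737, 0.0748 and 0.676. The other probe sets past the filter of Col6a2 and Col14a1 had slopes of -0.13 and 0.08. Both passed (limma, adjusted p = 0.0411 and 0.0476 over all probe sets past the filter). Col22a1 had a slope of -0.08 ± 0.03 (SE; adjusted p = 0.051), the smallest adjusted p among those that did not pass. Of the 23 genes with a called slope, 13 had another probe set past the filter, and in 11 of these all others had the same sign. In 5 of the 13, another probe set had a slope of less than 50% in size or of the other sign. It was smaller for Vtn, Col26a1 and Sparc, and of the other sign for Col1a2 and Col25a1.

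Genes that process the matrix, anchor integrins or sit beside these proteins in it were drawn from a separate list of 128, of which 95 were past the filter. Of these 95, 6 rose and 17 fell with part number (24.2% together, against the same 19.2% of all genes). Without the replicate 2 arrays 10 fell. Among 19 genes of collagen folding and cross-linking, 3 rose and 3 fell (31.6% together, where 8.09% of all genes rose and 11.1% fell). The prolyl hydroxylase P3h2 rose by 0.32 ± 0.04 (SE; adjusted p = 3.94e-07) per part, its part means going from 5.33 (part 1) to 7.35 (part 7). Plod2, a lysyl hydroxylase, and Ppib, a prolyl isomerase, rose by 0.12 and 0.06 (adjusted p = 0.00665 and 0.00345). The procollagen proteinase enhancers Pcolce2 and Pcolce and the prolyl hydroxylase P4ha2 had slopes of -0.29 ± 0.06 (SE; adjusted p = 0.00107), -0.21 ± 0.07 (SE; adjusted p = 0.0468) and -0.15 ± 0.04 (SE; adjusted p = 0.00793). The Pcolce call was lost on leaving out any of 18 single arrays (adjusted p up to 0.111), that is, all but part 3 replicate 3 and part 7 replicates 1 and 3. Without the arrays of a single replicate number the calls of Plod2, Pcolce2 and P4ha2 were lost too.

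Among 15 integrin adaptors and kinases, 5 fell and 10 did not pass (33.3% fell, where 11.1% of all genes did). Those that fell were the talin Tln2 (-0.20 ± 0.02 SE; adjusted p = 2.58e-08), the parvin Parvb (-0.25 ± 0.03 SE; adjusted p = 1.29e-06), zyxin (-0.25 ± 0.04 SE; adjusted p = 2.99e-05), paxillin (Pxn, -0.11 ± 0.02 SE; adjusted p = 0.00114) and the kindlin Fermt2 (-0.07 ± 0.02 SE; adjusted p = 0.0146). All are cytoplasmic proteins of the sites where integrins meet the actin skeleton, as are list members that did not pass, such as Ilk, Tln1 and Vcl. Fermt2 was lost without the replicate 2 or replicate 3 arrays, and Pxn without the replicate 2 arrays.

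Of 20 proteoglycan and hyaluronan genes, 5 fell and 15 did not pass (25% fell, where 11.1% of all genes did). The hyaluronan synthase Has2 had a slope of -0.17 ± 0.05 (SE; adjusted p = 0.012) and the link protein Hapln1 one of -0.27 ± 0.09 (SE; adjusted p = 0.0396), while Itih5, of the hyaluronan-binding inhibitor family, rose. The glypicans Gpc4 and Gpc3 had slopes of -0.17 ± 0.03 (SE; adjusted p = 0.000223) and -0.12 ± 0.02 (SE; adjusted p = 0.000873), and the syndecan Sdc3 one of -0.14 ± 0.03 (SE; adjusted p = 0.00029). The Hapln1 call was lost on leaving out part 1 replicate 1 or 3, part 2 replicate 3, part 5 replicate 1, part 6 replicate 1, 2 or 3, or part 7 replicate 1 or 2 (highest adjusted p 0.0956), and Has2 without the replicate 1 or replicate 2 arrays.

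Of 14 microfibril, elastic fibre and fibulin genes, Fbln2 (-0.43 ± 0.06 SE; adjusted p = 2.41e-05) and Fbln7 (-0.20 ± 0.04 SE; adjusted p = 0.00128) fell, while Fbn2, the fibrillin above, rose. Of 10 metalloproteases and inhibitors, Mmp11 rose (0.08 ± 0.03 SE; adjusted p = 0.0386), and the gelatinase Mmp2 (-0.33 ± 0.04 SE; adjusted p = 1.24e-06) and the inhibitor Timp2 (-0.12 ± 0.03 SE; adjusted p = 0.00842) fell. The Mmp11 call was lost on leaving out part 1 replicate 1, 2 or 3, part 2 replicate 3, part 6 replicate 1 or 2, or part 7 replicate 1, 2 or 3 (highest adjusted p 0.1). Of 17 matricellular and other glycoproteins, Reln (0.16 ± 0.04 SE; adjusted p = 0.00657) and Thbs3 (0.13 ± 0.03 SE; adjusted p = 0.00743) rose and 15 did not pass. The shares called either way in the lists of 14, 10 and 17 genes were 14.3%, 30% and 11.8%, against 19.2% of all genes. Without the arrays of a single replicate number the calls of Fbln7, Timp2, Reln and Thbs3 were lost.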

How the data were processed

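The deposited values are array signals (intensity on a linear scale) that the authors made with MAS5, per the submitters' processing notes (version and scaling not given in the sources used here). Array means were 151 to 154 and medians 12.9 to 13.7, and no 2 arrays held identical values, so the number of arrays limits the precision. The array has 45101 probe sets. Setting aside 64 controls, 9160 without a symbol and 932 with several left 34945 with 1 symbol, the only ones named; 34741 of them were found by gene ID in the RefSeq table, and 0 symbols changed. Each of 18193 genes was represented by its probe set of highest mean, and 12143 genes were at or above the median signal of 13.3 in 3 or more arrays.

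On log2(signal + 16), limma 3.58.1 in R 4.3.3 (lmFit, and eBayes with a mean-variance trend) fitted a slope on part number and the 7 part means, using all 21 arrays without a block. P-values were adjusted by Benjamini-Hochberg over all genes, at a threshold of 0.05. Scripts were tested on simulated data. The genes, lists and tests were chosen with earlier results of these data known. Members with a call in any test, and the largest slope of each role group, are given with values; of the matrix partner genes, up to 3 each way per list by slope, and any in a count of 5 or fewer. Also tried were a pseudocount of 1 or 64, no filter or one at the 75th percentile of all signals (77.0), quantile normalization, median centring, no trend, weights per array, averaging the probe sets of a gene, replicate blocks, single arrays and replicate numbers left out, the end parts fitted alone and, chosen after seeing the data, the 3 arrays high in extraembryonic endoderm markers left out. Promoter windows came from RefSeq (GRCm38.p6), where 44 of the 62 genes had one.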

Additional observations from a re-analysis of the deposited data

How the results depend on the processing

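For the 28 genes called by the slope, F, end or middle test, no slope changed sign under any alternative. The 28 were chosen by tests on the same arrays, which the alternatives reuse in full or in part. The kept sign is therefore no separate test of them. Over these genes and settings, 969 values kept their side of the threshold, 17 lost it and 11 gained it. Of the other 34 genes, 18 had a slope of the other sign under at least 1 alternative, such as Col2a1 (-0.04 to 0.04) and Hspg2 (-0.01 to 0.04). Of the 23 genes with a called slope, 23 remained under quantile normalization, under median centring, without the trend and with array weights. With the filter at the 75th percentile 15 of the 23 were tested and 15 remained, so that 7 genes fell and 5 were lower in part 7. Calls at neighbouring steps numbered 12 with array weights, and genes higher in the middle parts numbered 6. The replicate number as a block gave 16 step calls and 7 genes higher in the middle parts, and as a random block (correlation 0.243) 16 and 6. With the block 9 genes rose and 18 fell, and 25.1% of all genes passed. The labels do not pair the numbers. Over 63 pairs of same-numbered arrays of different parts, the correlation of deviations from the part means ran from 0.037 to 0.68 (median 0.307). Of these pairs, 8 were at 0.1 or less. Over 126 pairs of different numbers the median was -0.234, with 29 above 0.1, and 20 of 21 arrays correlated best with one of their own number. The deviations of the arrays of a part cancel, so positive values among same numbers bring negative ones among different numbers. The medians are thus not separate evidence. The main fits have no block, so spread shared by a replicate number stays in their error.

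Without 1 replicate number, the counts ran from 10 to 22 for the F test, 7 to 9 for rising and 11 to 16 for falling slopes, 6 to 10 higher and 4 to 7 lower in part 7, 1 to 4 steps, 2 to 4 higher and 3 to 4 lower in the middle, and 4 to 5 rising and 10 to 18 falling partner genes. Without single arrays they ran from 19 to 27, 9 to 10, 14 to 17, 9 to 11, 6 to 10, 4 to 8, 3 to 6, 4 to 5, 5 to 7 and 15 to 20 in the same order. Leaving out a replicate number leaves 2 arrays a part, and fewer samples alone make fewer calls. Genes near the bottom of the signal scale (Vtn up to part 4, Itgb3, Itga7, Col24a1) have folds that depend on the constant added.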
